A study of Mus musculus with 4 samples.

Results

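Lyz1 and Lyz2 are the 2 lysozyme genes described here, found by their symbols among the 22547 features that every library listed. Their UMIs (unique molecular identifiers, 1 for each captured RNA molecule) were read in all kept cells of 4 droplet libraries, and above all in 2 classes set by other genes. AT2-like cells were those with at least 5% of their UMIs from Sftpc, the surfactant protein C gene of alveolar type II (AT2) cells. Macrophage-gate cells were those with at least 0.1% of their UMIs from Tyrobp, Fcer1g and C1qb together, genes of myeloid signalling and of complement C1q. Cells passing both gates were set aside.

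Lysozyme is a secreted enzyme that cuts the peptidoglycan of bacterial cell walls. The mouse carries a pair of lysozyme c genes: Lyz2, called M lysozyme, is the form known from macrophages, neutrophils and AT2 cells and is widely used as a myeloid gene, and Lyz1, called P lysozyme, is best known from the Paneth cells of the small intestine. In the lung lysozyme is stored and released by AT2 cells, beside surfactant, and by macrophages.

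The mice, of genotype Gramd2creERT2;mTmG in every sample, carry an inducible Cre driven by the AT1 (alveolar type I) cell gene Gramd2 and a membrane reporter that shows tdTomato without Cre and EGFP after recombination. The day 0 sample is lung cells sorted for GFP. Days 8, 13 and 20 are 3D cultures of such cells in growth factor-reduced Matrigel together with fibroblasts of the mouse line MLg, under SB 431542, a TGF-beta receptor inhibitor, and epithelial cells were enriched from them with beads against EpCAM. Each day is 1 library, and the labels used here give neither the number nor the age of the animals.

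The genes lie side by side on the minus strand of chromosome 10 (GRCm38, mm10), Lyz1 (ENSMUSG00000069515) at chr10:117287797-117292868 and Lyz2 (ENSMUSG00000069516) at chr10:117277331-117282321, with 5475 bases between them. Each has 4 exons and a coding sequence of 447 bases including the stop codon, 148 codons without it. Of the 447 bases 425 are identical (95.1%). The first 300 coding bases, from GENCODE M21 on GRCm38 with the exons joined, are printed because they show how much the pair shares, and capitals mark the 20 letters that differ in them. They lie within chr10:117291030-117292838 for Lyz1 and chr10:117280642-117282242 for Lyz2.
Lyz1 coding: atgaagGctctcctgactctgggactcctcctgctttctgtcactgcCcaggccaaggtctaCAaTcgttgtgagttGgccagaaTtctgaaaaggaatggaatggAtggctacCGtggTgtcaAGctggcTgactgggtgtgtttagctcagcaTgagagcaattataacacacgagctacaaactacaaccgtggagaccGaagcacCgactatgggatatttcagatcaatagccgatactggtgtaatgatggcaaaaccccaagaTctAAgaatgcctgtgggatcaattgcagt
Lyz2 coding: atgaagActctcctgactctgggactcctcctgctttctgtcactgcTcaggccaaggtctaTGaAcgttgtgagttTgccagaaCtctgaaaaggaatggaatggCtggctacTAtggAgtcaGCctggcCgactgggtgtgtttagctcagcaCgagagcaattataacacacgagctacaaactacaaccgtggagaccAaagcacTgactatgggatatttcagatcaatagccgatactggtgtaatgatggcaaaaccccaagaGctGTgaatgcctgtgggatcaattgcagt

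The stretch before the genes is less alike. The next lines give 200 bases of each, ending 50 bases before the RefSeq start on GRCm38.p6, at chr10:117292919-117293118 for Lyz1 and chr10:117282323-117282522 for Lyz2, both on the minus strand. An alignment of the 2 windows has 154 identical bases in 206 columns (74.8%), and capitals mark the 46 letters of each window that have no identical partner.
Lyz1 upstream: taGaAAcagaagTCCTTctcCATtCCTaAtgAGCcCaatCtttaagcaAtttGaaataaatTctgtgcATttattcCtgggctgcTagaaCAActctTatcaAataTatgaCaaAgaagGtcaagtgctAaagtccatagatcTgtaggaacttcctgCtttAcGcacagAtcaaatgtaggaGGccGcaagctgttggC
Lyz2 upstream: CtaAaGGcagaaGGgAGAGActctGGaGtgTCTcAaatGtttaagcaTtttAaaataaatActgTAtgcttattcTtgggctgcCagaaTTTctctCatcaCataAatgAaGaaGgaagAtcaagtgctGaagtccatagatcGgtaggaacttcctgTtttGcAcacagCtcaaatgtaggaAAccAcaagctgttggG
Both strands of the 250 bases before each start were searched for AGGAAGT, a sequence bound by the myeloid factor PU.1 and other ETS factors, and for TTNNGNAA, a form of the C/EBP sequence. AGGAAGT had 1 match in each gene, 100 bases before the start in both, and it is found in 7.69% of the 32851 RefSeq promoters searched the same way. TTNNGNAA had 1 match in each gene, 209 bases before the start of Lyz1 and 55 before that of Lyz2, overlapping no AGGAAGT match, and it is found in 36.8% of promoters. A match is a description of letters only.

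The reads of these libraries come from the 3′ end of transcripts, so a UMI count does not scale with transcript length (1263 bases for Lyz1 and 1316 for Lyz2) and the UMIs of the 2 genes can be set side by side. The 3′ ends are also alike, since the 3′ untranslated regions are identical in 95.6% of aligned columns. Of the 50-base windows in the last 500 bases, 80 of 451 of Lyz1 (17.7%) and 76 of 451 of Lyz2 (16.9%) are found whole in the other gene, and with windows of 90 bases 15 of 411 are (3.65%). Some reads can therefore fit both genes, and their assignment to either is uncertain. How the counting treated such reads is not given in the sources used here.

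The libraries of days 0, 8, 13 and 20 held between 31850454 UMIs (day 0) and 154258012 UMIs (day 8), and 7350, 7893, 9311 and 9178 cells passed the filters of at least 500 genes and at most 15% mitochondrial UMIs. The AT2-like gate took 91, 299, 389 and 526 of them and the macrophage gate 2676, 6697, 6732 and 5423, while 6, 35, 93 and 49 cells passed both and 4577, 862, 2097 and 3180 passed neither. The labels call all samples alveolar epithelial cells, yet the macrophage gate held from 36.4% of kept cells at day 0 to 84.8% at day 8. Any pair of libraries shared 19 to 30 kept barcodes. The median depth of AT2-like cells was 4034, 12761, 15604 and 15206 UMIs at days 0, 8, 13 and 20, and that of macrophage-gate cells 3794, 17156, 8106 and 10551.

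The gates were compared with marker lists that include the gate genes, so the sums below are in part fixed by the gates. AT2-like cells had all 12 AT2 markers at 20 CPM (counts scaled to 1e6 UMIs of the class) or more on every day, summing to between 194456 and 245810 CPM. Sftpc alone gave 143817, 143033, 166505 and 205364 CPM in AT2-like cells at days 0, 8, 13 and 20. The 13 macrophage markers summed there to 85.2, 216, 437 and 193 CPM at days 0, 8, 13 and 20, with 0, 4, 7 and 4 of them at 20 CPM or more. Macrophage-gate cells had all 13 at that level on every day, summing to 8207, 12499, 18025 and 19030 CPM, and their 12 AT2 markers summed to 595, 1087, 1742 and 1019 CPM. At day 0 this gate was mixed: 693 of 2676 cells had C1qa, C1qb and C1qc at 1000 CPM or more, 1309 had the alveolar macrophage genes Ear2, Chil3 and Fabp4 at that level, 856 had the neutrophil genes S100a8 and S100a9, and 719 had natural killer or T cell genes at 500 CPM or more. In the cultures C1q genes, which include the gate gene C1qb, reached 1000 CPM in 4311, 6505 and 5292 cells. The neutrophil genes reached it in 1, 13 and 2 cells. The natural killer or T cell genes reached 500 CPM in 5, 7 and 16 cells. By the neutrophil and lymphocyte genes the gate was thus less mixed in the cultures than at day 0.

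In AT2-like cells both lysozyme genes were abundant on every day, and their balance shifted over the culture. Lyz1 had 1136, 28758, 38045 and 15539 UMIs at days 0, 8, 13 and 20, or 2690 CPM (95% interval 2536 to 2851), 5957 CPM (5888 to 6026), 5464 CPM (5409 to 5519) and 1745 CPM (1717 to 1772). Lyz1 was thus high at days 8 and 13 and lowest at day 20. Which of days 8 and 13 was higher depended on the gate: at 2% Sftpc they had 4963 and 5145 CPM. Lyz2 had 20334 CPM (19906 to 20769), 13270 CPM (13168 to 13374), 33544 CPM (33409 to 33681) and 29914 CPM (29800 to 30027), and its lowest day was day 8. These exact Poisson intervals cover counting error only and do not overlap between days for either gene. As each day is 1 library, the spread between replicates of a day is unknown.

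Day contrasts were read with a rule of size: a ratio of CPM of at least 2, at least 20 CPM on the higher side and a 95% interval that excludes 1. At day 8 against day 0, Lyz1 in AT2-like cells was 2.21-fold higher (2.09 to 2.35), past the rule, as were 33.2% of the 6321 genes compared. Lyz2 was at 0.653-fold in that contrast (0.638 to 0.668), within the rule. At day 13 against day 8, Lyz1 was at 0.917-fold and Lyz2 was 2.53-fold higher (2.51 to 2.55), where 2.74% of genes were past the rule. At day 20 against day 13, Lyz1 was 3.13-fold lower (3.07 to 3.19) and Lyz2 was at 0.892-fold, where 4.03% of genes were past the rule. The paralogues therefore crossed the rule at different steps, and between the ends of the series, day 20 against day 0, neither did: Lyz1 was at 0.649-fold and Lyz2 at 1.47-fold, while 31% of genes were past it.

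The Lyz1 share of all lysozyme UMIs in AT2-like cells was 11.7% at day 0, 31.0% at day 8, 14.0% at day 13 and 5.51% at day 20. Its exact binomial (Clopper-Pearson) intervals were 11.1 to 12.3%, 30.7 to 31.3%, 13.9 to 14.1% and 5.43 to 5.60%, and no 2 of them overlap. They cover counting error only and treat each UMI as independent. Yet 10 of 91 cells held 82.4% of the Lyz1 UMIs at day 0, and 53 of 526 held 93.7% at day 20. The spread between cells is thus not covered, and that between replicates of a day is unknown. Lyz2 gave the larger part of the AT2-like lysozyme UMIs in every library.

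In macrophage-gate cells almost all lysozyme RNA was Lyz2. Lyz2 had 9482 CPM at day 0, 14114 CPM at day 8, 15576 CPM at day 13 and 8223 CPM at day 20, and none of its steps passed the rule. The nearest to it was day 20 against day 13, at 0.528-fold (0.526 to 0.530). Lyz1 had 316, 4307, 2727 and 3812 UMIs, or 20.6 CPM (18.4 to 23.0), 34.8 CPM (33.8 to 35.9), 41.7 CPM (40.1 to 43.3) and 55.3 CPM (53.5 to 57.1). Its share of lysozyme UMIs was 0.217, 0.246, 0.267 and 0.668% at days 0, 8, 13 and 20.

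No single step of macrophage Lyz1 passed the rule: day 8 against day 0 was at 1.69-fold, where 32.5% of genes were past it, day 13 against day 8 at 1.20-fold, where 11.5% were, and day 20 against day 13 at 1.33-fold, where 3.92% were. Day 20 against day 0 was 2.68-fold higher (2.39 to 3.02) and past it, as were 32.3% of genes. That value rests on few cells that also hold Sftpc. At day 20, the 39 macrophage-gate cells with 1 to 5% Sftpc held 3441 of the 3812 Lyz1 UMIs, at 5725 CPM. Without the cells of 1% Sftpc or more, a step added after seeing the data, macrophage Lyz1 was 20.3, 29.8, 28.7 and 5.43 CPM, and day 20 lay below day 0 by 1.90 on the log2 scale. Lyz2 in the same cells was nearly as before, at 9486, 14158, 15591 and 8113 CPM.

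**Figure D1:**
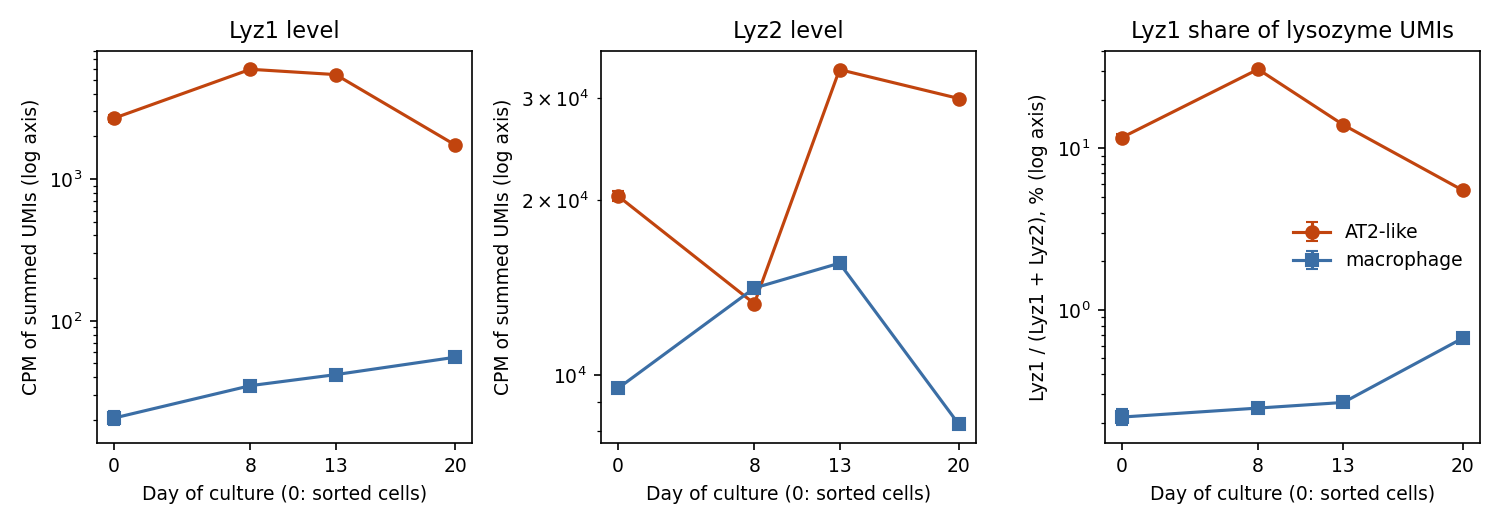
Lyz1 level, Lyz2 level (CPM of summed UMIs, log axes) and Lyz1 share of lysozyme UMIs (%, log axis) by day of culture, in AT2-like cells (circles) and macrophage-gate cells (squares) of 1 library a day, with 95% counting intervals that are mostly smaller than the points. AT2-like Lyz1 lies far above macrophage Lyz1 on every day, while the Lyz2 lines cross at day 8, where AT2-like cells had 13270 CPM and macrophage-gate cells 14114 CPM.

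Set side by side within each library, the 2 classes differed much more in Lyz1 than in Lyz2. Lyz1 was 131-fold higher in AT2-like than in macrophage-gate cells at day 0, 171-fold at day 8, 131-fold at day 13 and 31.6-fold at day 20. Lyz2 was 2.14-fold higher in AT2-like cells at day 0, at 0.940-fold at day 8, and 2.15-fold and 3.64-fold higher at days 13 and 20. In edgeR's quasi-likelihood test over the 4 libraries, with the library as a block and Benjamini-Hochberg adjustment over 12306 genes, 2574 genes (20.9%) were higher in AT2-like cells and 3105 (25.2%) were lower, and the median log2 fold change of all genes was -0.10. Lyz1 was higher by 6.77 on the log2 scale (SE 0.48, adjusted p = 2.7e-04), with every library in that direction. Lyz2 was higher by 1.13 (SE 0.36, adjusted p = 0.0443), with 3 of 4 libraries in that direction. The Lyz2 call is close to the threshold and is lost without day 0, 13 or 20 (adjusted p = 0.0875, 0.1247 and 0.136). The 4 libraries are 4 days and not replicates of a condition, so the spread includes how the classes differ from day to day.

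The log2 ratio of Lyz1 to Lyz2 was -2.92, -1.16, -2.62 and -4.10 in AT2-like cells and -8.85, -8.66, -8.55 and -7.22 in macrophage-gate cells at days 0, 8, 13 and 20. The lowest AT2-like value lies above the highest macrophage value, so the classes did not overlap. The difference within a library was 5.93, 7.51, 5.93 and 3.12, with a mean of 5.62 ± 1.83 (SD, n = 4 libraries). An exact two-sided sign-flip permutation test gave p = 0.13, the smallest that 4 libraries allow. With macrophage-gate cells under 1% Sftpc the differences were 5.95, 7.74, 6.47 and 6.45, with a mean of 6.65 ± 0.762.

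Cells close to the gates show how far the classes depend on where the lines are drawn. Cells just above the AT2-like gate, with 5 to 6% Sftpc, had Lyz1 at 2953, 322, 1462 and 684 CPM in 5, 15, 9 and 9 cells, against 1504, 196, 975 and 455 CPM in the 1, 11, 13 and 10 cells just below it, with 4 to 5%. Cells just above the macrophage gate, at 0.1 to 0.12%, had Lyz2 at 1555, 1747, 2132 and 951 CPM, against 1451, 1191, 1736 and 1448 CPM in those just below it. Lyz2 at the edge of the macrophage gate was thus well under the level of the gate as a whole on both sides of the line.

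Cells that passed neither gate were clustered and named by their markers, and lysozyme was low in nearly all of them. At day 0 the 505 AT1-like cells, which line most of the gas exchange surface, had 1 Lyz1 UMI (0.706 CPM) and Lyz2 at 85.4 CPM, no higher than the 121 CPM of Lyz2 in natural killer and T-like cells. Neutrophil-like cells stood apart for Lyz2, at 1645 CPM at day 0 (195 cells). The cells of that cluster at day 8 had 2408 CPM (27 cells). Their name is uncertain on both days, as Il12b and Cd207 were leading genes beside Prtn3, Elane and S100a8. At Leiden resolution 0.5 the cluster with Prtn3 and Elane was unnamed. At resolution 2 the neutrophil-named cluster held 166 day 0 cells, and a monocyte-named cluster led by Il12b and Cd207 held 35. At day 8 the neutrophil-named cluster of resolution 2 held 1 cell, and a macrophage-named cluster held 26. Smooth muscle and pericyte-like cells had 68 Lyz1 UMIs at day 0, all in 1 of 577 cells.

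Airway secretory-like cells, which coat the airway with mucosal proteins, had Lyz1 at 231 CPM at day 8 (35 cells), 76.1 CPM at day 13 (313 cells) and 3.35 CPM at day 20 (147 cells). The 3 highest of them held 92 of 191 Lyz1 UMIs at day 8 and 206 of 544 at day 13. Ciliated-like cells had Lyz1 at 98.1 CPM at day 13, with 222 of 312 UMIs in 1 of 87 cells. An unnamed cluster, closest to the airway secretory list but with the AT2 genes Sftpa1, Lamp3, Sftpc and Sftpb among its leading genes, had Lyz1 at 115, 361 and 259 CPM and Lyz2 at 728, 5854 and 3196 CPM at days 8, 13 and 20. Its highest cells held 88 of 447, 155 of 857 and 311 of 809 Lyz1 UMIs. At Leiden resolution 2, clusters of 204 and 295 cells with AT2 genes among their leading genes were named AT2. Lyz1 was 423 and 149 CPM in them, but the classes given here are those of resolution 1. In every library the macrophage gate had more Lyz2 than each of these clustered classes.

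**Figure D2:**
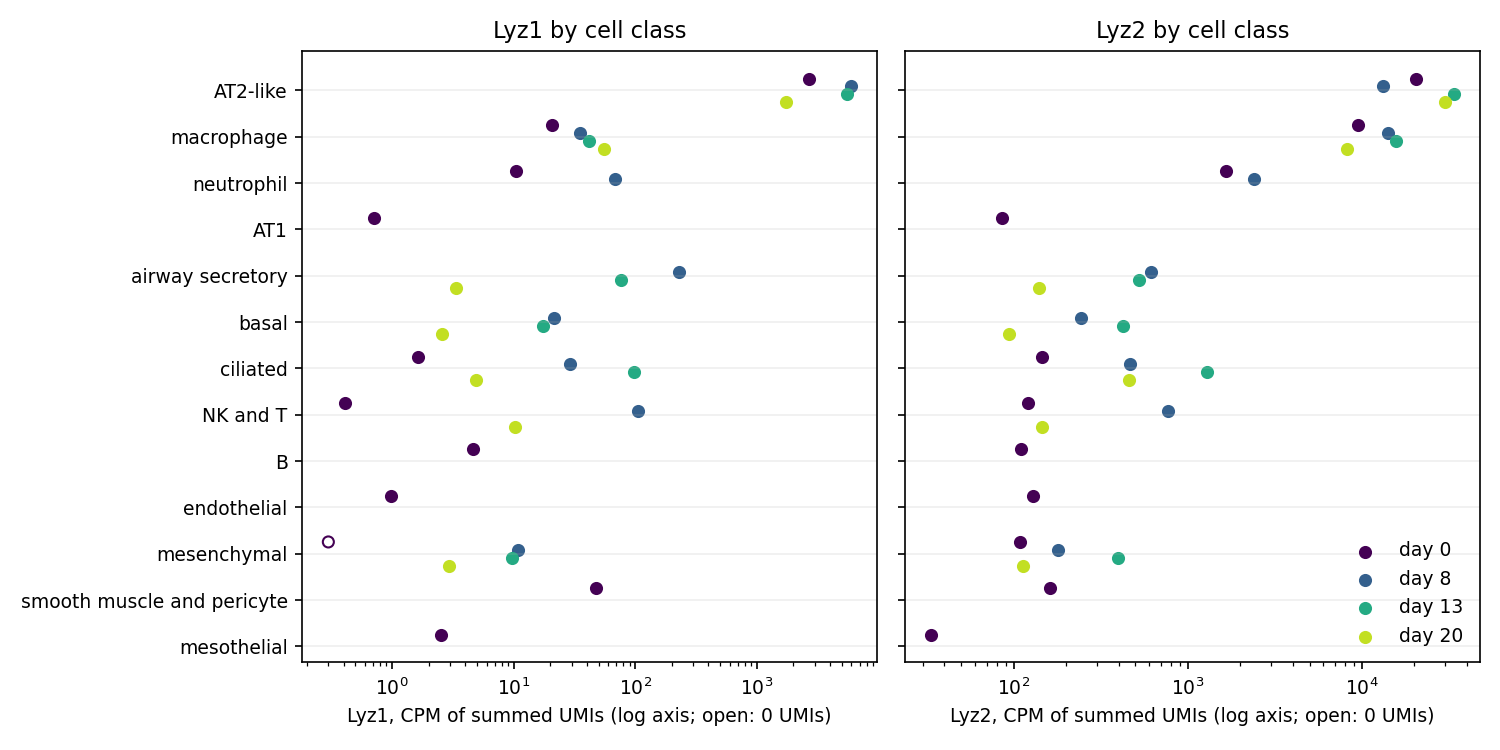
Lyz1 (left) and Lyz2 (right) in each cell class, as CPM of summed UMIs on a log axis, with 1 point a library coloured by day and an open point for 0 UMIs; classes with few cells in a library are left out. AT2-like cells are the rightmost row for Lyz1 at 1745 to 5957 CPM, while Lyz2 is high both in AT2-like cells and in macrophage-gate cells.

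Shares of cells with a UMI were compared after thinning each cell to 2000 UMIs. Lyz1 was seen in 25.3, 44.2, 31.4 and 19.8% of AT2-like cells at days 0, 8, 13 and 20, against 1.78, 4.61, 5.15 and 1.16% of macrophage-gate cells. In lymphoid, endothelial and mesenchymal-like cells, which should lack lysozyme, the share was 0.165, 4.73, 2.83 and 0.797%. The macrophage share at day 8 did not exceed that of these other classes. At days 0, 13 and 20 it lay above theirs, with counting intervals that overlap at day 20. By level the order at day 8 was the other one, with Lyz1 at 34.8 CPM in macrophage-gate cells against 12.8 CPM in the other classes. The part of free RNA in the macrophage share was not tested. Before thinning the shares were 26.4, 60.2, 53.0 and 30.6% in AT2-like cells, 3.40, 26.3, 17.2 and 5.18% in macrophage-gate cells and 0.306, 23.3, 17.4 and 4.96% in the other classes, whose median depths were 2062, 17755, 18156 and 19077 UMIs. Lyz2 was seen in 96, 88.1, 97.4 and 95.4% of thinned AT2-like cells, in 94.7, 99.3, 99.8 and 98.8% of macrophage-gate cells and in 15.7, 37.3, 52.9 and 21.5% of the other classes.

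Lysozyme RNA in those other classes served as an estimate of free RNA. Lyz1 stood at 1.45, 12.8, 9.75 and 3.04 CPM there and Lyz2 at 120, 192, 397 and 114 CPM at days 0, 8, 13 and 20. Macrophage-gate cells under 1% Sftpc had Lyz1 at 20.3, 29.8, 28.7 and 5.43 CPM, so at day 20 they were near that estimate. The estimate depended on the class and in the cultures was carried by mesenchymal-like cells, with Lyz1 at 10.8 CPM at day 8 and 9.63 CPM at day 13. Natural killer and T-like cells had 106 CPM at day 8 (60.5 to 172, 16 UMIs in 37 cells) and 43.0 CPM at day 13 (11.7 to 110, 4 UMIs in 13 cells), and B-like cells had 151 CPM at day 8 (72.2 to 277, 10 UMIs in 15 cells). At day 8 those few cells thus had more Lyz1 than macrophage-gate cells under 1% Sftpc, and at day 13 the wide interval of the natural killer and T-like cells includes the macrophage value. In AT2-like cells both genes lay far above these levels on every day.

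Within AT2-like cells the genes were spread in different ways: most cells had Lyz2, and few held most of the Lyz1. No Lyz1 UMI was seen in 73.6, 39.8, 47.0 and 69.4% of AT2-like cells at days 0, 8, 13 and 20, whereas only 5, 1, 1 and 6 cells had no Lyz2 UMI. The 10% of cells highest in Lyz1 held 82.4, 77.9, 81.0 and 93.7% of its UMIs, and the 10% highest in Lyz2 held 37.2, 55.3, 37.1 and 39.2%. Single cells reached 26048, 74992, 82244 and 71034 CPM of Lyz1. The median cell had Lyz2 at 18220, 4678, 24801 and 22344 CPM.

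The Lyz1 share per cell was taken over the 79, 240, 375 and 485 AT2-like cells with at least 10 lysozyme UMIs. Its median was 0, 3.96, 0.115 and 0% at days 0, 8, 13 and 20, and its highest value 73.1, 98.1, 97.1 and 86.8%. Cells with at least 50% of their lysozyme UMIs from Lyz1 numbered 10, 59, 38 and 13, or 12.7% (6.24 to 22.0), 24.6% (19.3 to 30.5), 10.1% (7.27 to 13.6) and 2.68% (1.43 to 4.54). Among macrophage-gate cells with as many lysozyme UMIs, 0 of 1760, 1 of 6510, 2 of 6536 and 2 of 5091 were of this kind, and the 0 at day 0 allows a share of up to 0.209% (Clopper-Pearson).

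**Figure D3:**
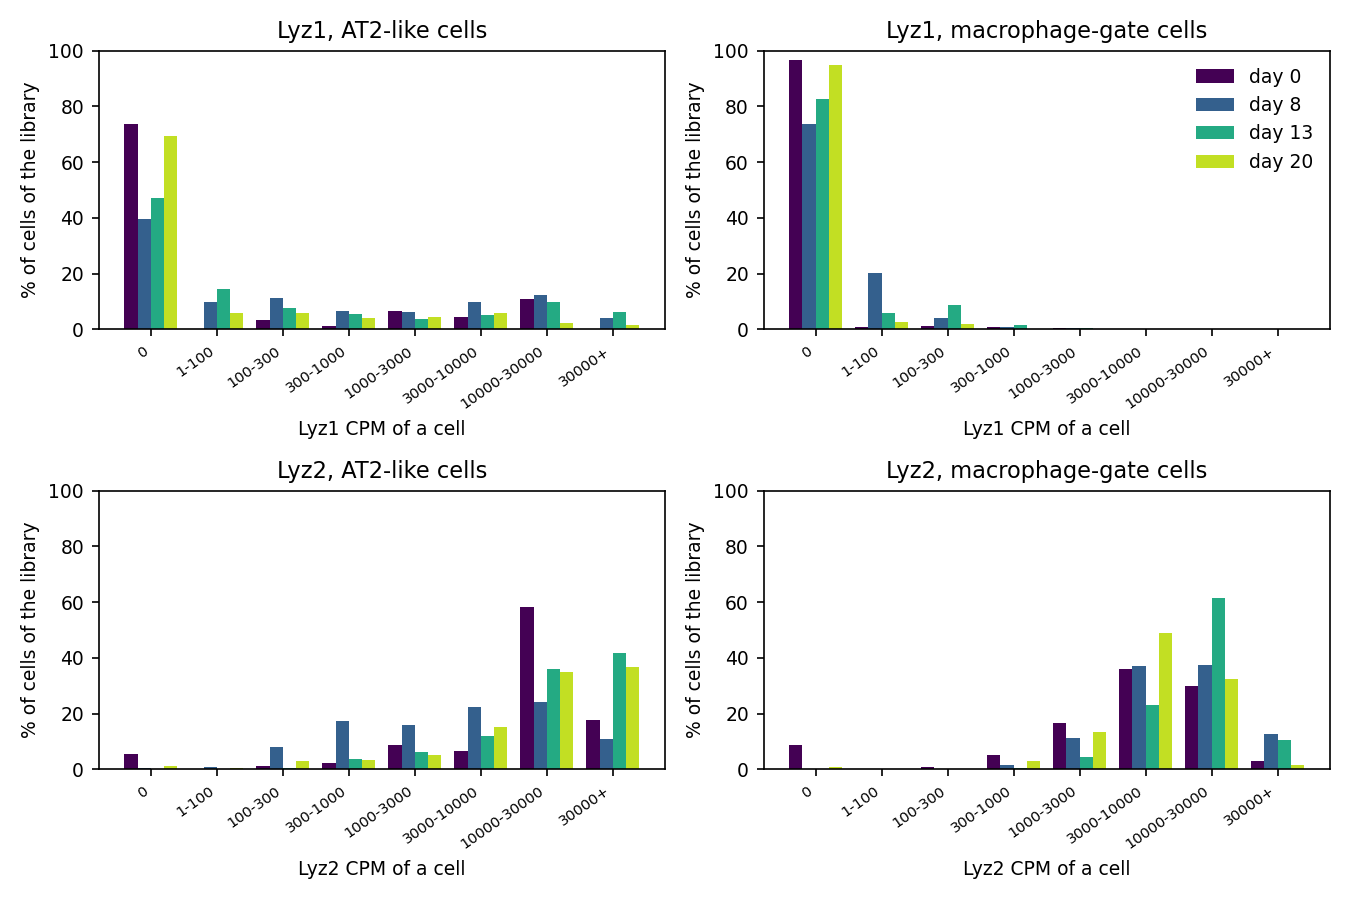
Percent of cells of each library (bars, coloured by day) by the CPM of Lyz1 (top) and Lyz2 (bottom) in the cell, for AT2-like cells (left) and macrophage-gate cells (right). Lyz1 in AT2-like cells has a tall bar at 0 and a tail that reaches 30000 CPM and more, whereas Lyz2 is above 0 in nearly all cells of both classes.

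A line at 1000 CPM of Lyz1, drawn after seeing the data, set 20, 97, 98 and 76 AT2-like cells apart as Lyz1-high at days 0, 8, 13 and 20. They were 22.0% (14.0 to 31.9), 32.4% (27.2 to 38.1), 25.2% (20.95 to 29.8) and 14.4% (11.6 to 17.7) of AT2-like cells. Between 500 and 2000 CPM lay 3, 19, 20 and 33 cells. The Lyz1-high cells are a range of 1 gene and not a cell type, and they are described here without a test.

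Their reporters differed between the sorted cells and the cultures. Among cells with at least 80% of their reporter UMIs from EGFP, the Lyz1-high numbered 18 of 59 at day 0, 5 of 48 at day 8, 12 of 81 at day 13 and 1 of 72 at day 20, or 30.5, 10.4, 14.8 and 1.39%. Among cells with at least 80% from tdTomato they numbered 1 of 7, 36 of 92, 48 of 155 and 22 of 145, or 14.3, 39.1, 31.0 and 15.2%. In the 3 cultures tdTomato cells were thus Lyz1-high more often than EGFP cells, with intervals that do not overlap at days 8 and 20. Cells with under 2 reporter UMIs were Lyz1-high in 39.4, 26.7 and 16.1% at days 8, 13 and 20. Cells with neither reporter at 80% were so in 29.2, 22.4 and 19.8%. The EGFP cells therefore stood apart by a low share in the cultures, and the tdTomato cells did not by a high one. Summed Lyz1 was 3287, 679, 3783 and 226 CPM in the EGFP cells against 4384, 8088, 5812 and 2426 CPM in the tdTomato cells. It was lower in the EGFP cells in all 4 libraries, but the day 0 tdTomato level is 161 UMIs in 7 cells. Only 1 of those 7 was Lyz1-high, and the Lyz1-high share had the other order at day 0. Lyz2 was lower in the EGFP cells as well, at 19539, 6323, 21879 and 13541 CPM against 31153, 18586, 39332 and 37175 CPM. The median depth was 4304, 10612, 16396 and 14920 UMIs in the EGFP cells against 5099, 20280, 17698 and 18896 UMIs in the tdTomato cells, and the part of depth in these shares was not tested.

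AT2-like cells high in MHC class II genes, which present peptides and are known to be expressed by AT2 cells, had a lower level of Lyz1 than the rest at days 8 and 13. Of AT2-like cells with H2-Aa, H2-Ab1 and H2-Eb1 summing to at least 1000 CPM, 19 of 78 were Lyz1-high at day 0, 0 of 12 at day 8, 1 of 45 at day 13 and 10 of 148 at day 20. Of the cells under that level, 1 of 13, 97 of 287, 97 of 344 and 66 of 378 were. Summed Lyz1 was 2974, 12.2, 49.6 and 1800 CPM in the MHC class II-high cells against 958, 6165, 6132 and 1721 CPM in the rest. By level the MHC class II-high cells were thus far lower at days 8 and 13 and higher at day 0. At day 20 their level was slightly higher, with counting intervals that overlap, while their share of Lyz1-high cells was lower. Lyz2 in the MHC class II-high cells was 21623, 1125, 23836 and 27043 CPM against 12472, 13696, 34744 and 31142 CPM, so at day 8 these 12 cells were low in both genes.

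**Figure D4:**
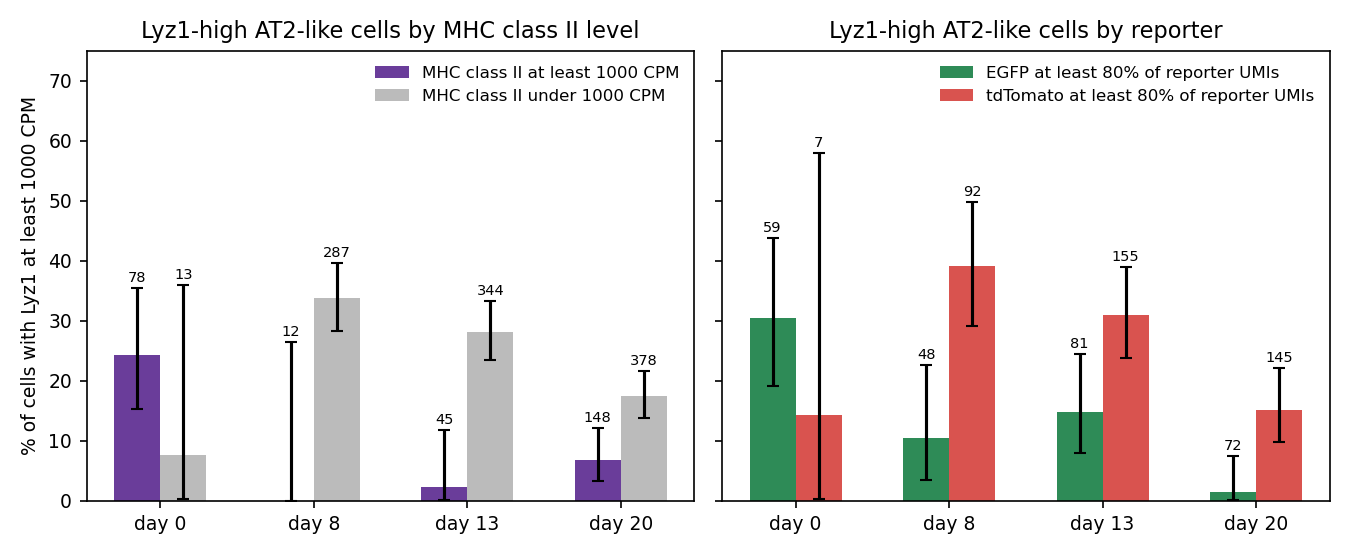
Percent of AT2-like cells with Lyz1 at 1000 CPM or more, by MHC class II level (left) and by dominant reporter (right), with Clopper-Pearson 95% intervals and the number of cells above each bar. The Lyz1-high share is larger in tdTomato than in EGFP cells at days 8, 13 and 20, and larger in cells under 1000 CPM of MHC class II on the same days, while day 0 has only 7 tdTomato cells and 13 cells of low MHC class II.

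Lyz2 tracked Sftpc among AT2-like cells and Lyz1 did so only in part. In cells with 5 to 10%, 10 to 20% and over 20% of UMIs from Sftpc, Lyz2 was 7392, 21596 and 35146 CPM at day 0. The same order held at day 8 (4221, 13386 and 27741 CPM), day 13 (16912, 32378 and 44303 CPM) and day 20 (15237, 26774 and 33740 CPM). Lyz1 had this order at day 0 (1444, 2805 and 4179 CPM) and day 8 (3214, 5936 and 10623 CPM). It levelled off at day 13 (2717, 6049 and 5950 CPM) and was highest in the lowest stratum at day 20 (3413, 1322 and 1727 CPM).

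Cycling AT2-like cells, those with at least 2 UMIs of 8 mitotic genes, numbered 0, 94, 70 and 44 at days 0, 8, 13 and 20. Lyz1 was 4375, 7890 and 1637 CPM in them at days 8, 13 and 20, against 6926, 4636 and 1762 CPM in the other AT2-like cells, so the order changed between days. Lyz2 was 10107, 28753 and 27626 CPM in cycling cells against 15209, 35179 and 30290 CPM in the others.

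In most genes the Lyz1-high cells were close to the other AT2-like cells. Within each library 3.46, 2.35, 1.44 and 3.3% of genes were past the 2-fold rule at days 0, 8, 13 and 20 when they were set against the other AT2-like cells, and of the 12 AT2 markers none was on any day. Sftpa1, a surfactant protein that binds microbes, was 1.27, 1.40, 1.36 and 1.41-fold of its level in the other cells, within the rule. Lyz2 was 17000, 16255, 30727 and 40253 CPM in Lyz1-high cells against 21405, 11433, 34539 and 27832 CPM in the other AT2-like cells, on either side and within the rule. Of the macrophage markers compared, 1, 4, 7 and 4 on the 4 days, none was past the rule. Tyrobp, itself a gate gene, was 29.2, 24.5, 50.1 and 16.1 CPM in Lyz1-high cells against 12.5, 25.8, 62.6 and 22.7 CPM in the others. The AT2-like class leaves out cells past the macrophage gate, which limits what these values can show about macrophage RNA.

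MHC class II genes stood apart at days 8 and 13. Of the members compared, 1 of 7 was lower in Lyz1-high cells at day 0, 5 of 5 at day 8, 6 of 6 at day 13 and 0 of 6 at day 20, where all 6 ratios were still below 1. H2-Aa, a chain of the class II molecule, had 1168, 0.544, 11.6 and 196 CPM in Lyz1-high cells against 1358, 88.0, 147 and 390 CPM in the others, and the day 8 value is 1 UMI. Cd74, the invariant chain that guides class II molecules to the endosome, had 3973, 141, 390 and 1392 CPM against 4540, 724, 1173 and 1970 CPM. The same direction held for both on every day, and days 8 and 13 were past the rule.

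Of 12 AT1 markers, 2 of 9 compared were lower at day 0, 4 of 7 at day 8, 1 of 7 at day 13 and 0 of 7 at day 20, and none was higher. Ager, the receptor that marks AT1 cells, was 828, 831, 863 and 1219 CPM in Lyz1-high cells against 1505, 1611, 1486 and 1627 CPM in the others, lower on every day without passing the rule. EGFP, which reports recombination, was 2775, 68.5, 323 and 54.3 CPM in Lyz1-high cells against 1630, 494, 546 and 257 CPM in the others, and was past the rule at days 8 and 20. The other reporter, tdTomato, was 87.6, 139, 168 and 127 CPM against 147, 130, 155 and 96.6 CPM, within the rule on every day.

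Of the other secreted antimicrobial proteins compared, 0 of 7 passed the rule at day 0, 2 of 9 were higher in Lyz1-high cells at day 8, 2 of 9 were lower at day 13, and 4 of 9 were higher at day 20, with none the other way on those days. Airway secretory markers, which share genes with this list, went alongside in the cultures but not at day 0. At day 0, 2 of 3 compared were lower in Lyz1-high cells (Scgb1a1 and Cyp2f2). At day 8, 3 of 7 were higher (Scgb3a2, Bpifa1 and Reg3g), and the same 3 were lower at day 13. At day 20 Bpifa1, Muc5b and Reg3g were higher and Scgb3a2 lower. Whether airway RNA had a part in these values was not tested. Bpifa1, an airway protein with antibacterial and surfactant activity, was 3514, 379 and 1048 CPM in Lyz1-high cells at days 8, 13 and 20, against 1067, 1197 and 350 CPM in the others, past the rule each time and in the other direction at day 13. Reg3g, a lectin against Gram-positive bacteria, was past it in the same directions. Pglyrp1, which binds peptidoglycan, was 58.4, 3565, 3975 and 2262 CPM in Lyz1-high cells against 68.8, 1938, 2700 and 1091 CPM in the others, and was past the rule at day 20 only. Of 10 ciliated markers, 8 of 9 compared were higher in Lyz1-high cells at day 20, but their 834 UMIs lay mainly in 2 of 76 cells, with 436 in the highest.

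Macrophage-gate cells were uneven in Lyz2 in turn. Cells with the alveolar macrophage genes Ear2, Chil3 and Fabp4 at 1000 CPM or more had Lyz2 at 13339, 23516, 22094 and 11505 CPM at days 0, 8, 13 and 20, against 5258, 11954, 14428 and 7980 CPM in the rest of the gate. Cycling cells had 6097, 12446, 10937 and 5766 CPM, against 10385, 18634, 17282 and 9586 CPM in cells that were not cycling. The first were thus higher and the cycling ones lower on all 4 days. By MHC class II the direction changed: the cells high in it had 5748 CPM at day 0 and 9988 CPM at day 20, against 14222 and 7351 CPM in the rest.

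Lyz1 in the macrophage gate was higher with each step of Sftpc in the cultures. From under 0.03% to 0.03 to 0.1%, 0.1 to 1% and 1 to 5% of UMIs from Sftpc, Lyz1 was 27.5, 31.1, 61.8 and 744 CPM at day 8 and 22.3, 23.6, 76.6 and 1046 CPM at day 13. At day 20 it was 4.41, 6.94, 13.2 and 5725 CPM. The 1% of cells highest in Lyz1 held 79.7, 51.0, 55.8 and 94.1% of its UMIs at days 0, 8, 13 and 20, and 11, 51, 44 and 13 cells had 1000 CPM or more. Of the cells that passed both gates, Scrublet marked 6 of 6, 21 of 35, 33 of 93 and 28 of 49 at the highest doublet scores. The part of doublets in macrophage Lyz1 was not tested beyond the values without such cells.

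Other host-defence genes were divided between the classes in several ways in the same edgeR test. Of the lysozyme family, 3 of 10 members had enough UMIs to be tested, and Lyzl4, a lysozyme-like gene known from sperm, was lower in AT2-like cells by 2.44 on the log2 scale, at 4.39 CPM or less in both classes of every library. Of 17 secreted antimicrobial proteins, 13 were tested. Of these 6 were higher in AT2-like cells and 2 lower, against 20.9% and 25.2% of all genes. Their median log2 fold change was 3.79, against -0.10 for all genes. The higher ones were Sftpa1 (7.62), Sftpd (6.47), Lcn2 (5.96), which withholds iron from bacteria, Wfdc2 (4.75), Chil1 (3.92) and Bpifa1 (3.79). The lower ones were Chil3 (-8.69), a gene of alveolar macrophages, and S100a8 (-4.86), a subunit of calprotectin in neutrophils. Sftpa1 and Sftpd are also AT2 markers, and AT2 cells were chosen by Sftpc. Pglyrp1 did not pass the threshold (4.29, SE 1.65, adjusted p = 0.0799), with 66.3, 2558, 3032 and 1288 CPM in AT2-like cells against 240, 24.9, 173 and 48.6 CPM in macrophage-gate cells.

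Lysosomal genes went mostly to the macrophages. Of 19 tested, 14 were lower in AT2-like cells and 3 higher, against 25.2% and 20.9% of all genes. Their median was -2.09. Ctss (-6.73) and Ctsd (-3.62), cathepsins of the macrophage lysosome, were lower. The higher ones were Lamp3 (7.67), a membrane protein of lamellar bodies, Ctsh (3.57), a cathepsin that cuts the surfactant proteins B and C, and Npc2 (2.25), which carries cholesterol. Of 8 genes that sense the bacterial wall, 5 were lower in AT2-like cells and none higher, against 25.2% and 20.9% of all genes. Among the lower ones were Nod2 (-9.52), the receptor for muramyl dipeptide, and Tlr2 (-4.55).

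Of 9 myeloid transcription factors tested, 7 were lower in AT2-like cells and 1 was higher, against 25.2% and 20.9% of all genes. Their median was -3.75. Spi1, which encodes PU.1, was lower by 6.46 (SE 0.27, adjusted p = 1.0e-04), with 4.74, 3.52, 5.74 and 2.25 CPM in AT2-like cells against 433, 356, 375 and 363 CPM in macrophage-gate cells. Cebpa, a C/EBP factor of both myeloid and AT2 cells, was higher by 2.97 (SE 0.43, adjusted p = 0.00316), with 360, 175, 133 and 172 CPM against 126, 13.1, 20.4 and 17.9 CPM. Neither class overlapped the other for these genes. Of 7 MHC class II genes, 1 was lower (H2-DMa, -1.51) and none higher, with a median of -0.17.

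**Figure D5:**
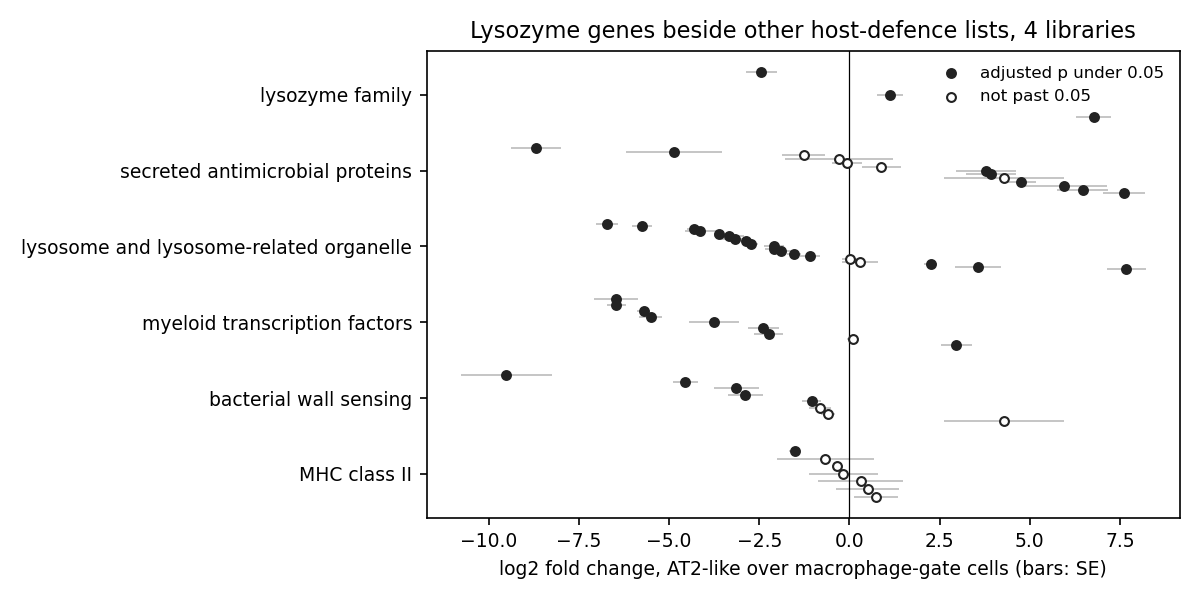
Log2 fold change, AT2-like over macrophage-gate cells, for the tested members of 6 gene lists (1 point a gene, bars are SE), from edgeR over 4 libraries with the library as a block; filled points have an adjusted p under 0.05. Lyz1 is the rightmost point of the lysozyme family at 6.77 and Lyz2 lies at 1.13, while lysosome and myeloid factor genes lie mostly left of 0.

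Over the days the lists did not move as a block with either lysozyme gene. In AT2-like cells at day 8 against day 0, when Lyz1 was higher, 5 of 9 antimicrobial genes compared were higher and 1 lower, while 7 of 7 MHC class II genes were lower. At day 20 against day 13, when Lyz1 was lower, 5 of 9 antimicrobial genes were lower and none higher, and 4 of 6 MHC class II genes were higher and none lower. Of the lysosomal genes 3 of 14 were higher and 1 lower in the earlier of these contrasts, near the 33.2% of all genes past the rule in it, and 1 of 16 was higher and 1 lower in the later one, where 4.03% of all genes were. At day 13 against day 8, when Lyz2 was higher, 2 of 9 antimicrobial genes were higher and 1 lower. In that step 0 of 16 lysosomal genes were past the rule, and 1 of 6 MHC class II genes was higher and none lower, against 2.74% of all genes past it. Lcn2 had 455, 1272, 2394 and 1531 CPM and Wfdc2 3211, 7145, 8255 and 6797 CPM in AT2-like cells at days 0, 8, 13 and 20, both with day 13 as the highest day. Sftpa1, at 20845, 12134, 12774 and 5791 CPM, was highest in the sorted cells.

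In macrophage-gate cells Lyz2 stayed within the rule while other genes of the lists did not. At day 8 against day 0, 11 of 18 lysosomal genes were higher and 2 lower, 10 of 15 antimicrobial genes were lower and 4 higher, and 7 of 7 MHC class II genes were lower, where 32.5% of all genes were past the rule. The gate changed its makeup over this step, as its neutrophil markers summed to 9636, 292, 391 and 205 CPM at days 0, 8, 13 and 20 and its alveolar macrophage markers to 6050, 636, 585 and 297 CPM. The part of that change in the contrasts was not tested. At day 20 against day 13, 7 of 7 MHC class II genes were higher and 0 of 18 lysosomal genes were past the rule, against 3.92% of all genes.

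Genes were ranked by how closely their level followed each lysozyme gene over 29 summed profiles, 1 for each class and library with at least 50 cells, by Pearson's r of log2(CPM + 1) among 8016 genes with at least 50 CPM in some profile. The nearest to Lyz1 were Sftpc (r = 0.910), Lamp3 (0.879), Tmem213 (0.876), Acoxl (0.875) and Slc34a2 (0.874), the phosphate carrier of AT2 cells. The nearest to Lyz2 were Atp6v1b2 (0.865), Atp6v1g1 (0.862) and Atp6v0d1 (0.848), subunits of the vacuolar proton pump, then Lyz1 (0.835) and Ctsc (0.815), a cathepsin. Lyz2 was the 14th nearest to Lyz1. Profiles of a library share its depth and free RNA, and Sftpc also set a class, so these values describe these profiles only. Acoxl had 137, 75.8, 101.2 and 111 CPM in AT2-like cells at days 0, 8, 13 and 20 against at most 0.917 CPM in macrophage-gate cells, while Atp6v1b2 had 142, 73.5, 121 and 142 CPM against 164, 168, 125 and 134 CPM.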

How the data were processed

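The deposited files hold raw UMI counts per gene and barcode, which the authors made on the mm10 build with Cell Ranger 7.0.1 (named in the submitters' processing notes). Libraries were made with a Chromium 3′ v3.1 kit from single-cell suspensions, per the labels' protocols, while the labels name nuclear RNA. Any correction for free RNA or doublets is not given in the sources used here.

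Cells with at least 500 genes and at most 15% mitochondrial UMIs were kept and gated as described above; 0 columns of per-sample values were left unused. Counts were summed per class and library and given as CPM with exact Poisson intervals, shares with Clopper-Pearson intervals and ratios with exact conditional Poisson intervals, all at 95%. No test between days was possible with 1 library a day. AT2-like and macrophage-gate sums were compared with edgeR 4.0.16 (R 4.3.3; filterByExpr, TMM, quasi-likelihood, library block), after a test on simulated data. Other cells were clustered with Scanpy 1.11.5 (2000 variable genes, 30 components, 15 neighbours, Leiden resolution 1). A cluster was named from marker lists and left unnamed where another class had as many markers among its leading genes. Scrublet's automatic threshold called 0, 255, 0 and 0 cells at days 0, 8, 13 and 20, so the 523, 719, 853 and 761 highest scores were removed as an alternative, 0.8% per 1000 barcodes.

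The members, gene lists and gates were chosen with earlier results of these data known. Genes named are Lyz1, Lyz2, the 5 most like each over the summed profiles and members of the lists. Sequences come from RefSeq (GRCm38.p6) and GENCODE M21.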

Additional observations from a re-analysis of the deposited data

Results flagged for a closer look

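The difference in Lyz2 between AT2-like and macrophage-gate cells had another direction at day 8 than on the other days. Its log2 fold change was -0.089 at day 8, against 1.10, 1.11 and 1.86 at days 0, 13 and 20. At day 8 both the AT2-like level (13270 CPM, the lowest of the 4 days) and the macrophage level (14114 CPM) entered into it. Whether day 8 differs from the other days was not tested, since each day is 1 library.

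Lyz2 in Lyz1-high against other AT2-like cells differed in direction between days as well. The log2 ratio was -0.33 at day 0 and -0.17 at day 13, against 0.51 at day 8 and 0.53 at day 20. That difference between days was not tested.

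EGFP in Lyz1-high against other AT2-like cells had a log2 ratio of 0.77 at day 0, against -2.85, -0.76 and -2.25 at days 8, 13 and 20. The day 0 value rests on 285 EGFP UMIs in 20 Lyz1-high cells and 521 in the other 71, and the difference from the cultures was not tested.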

How the results depend on the processing

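Lyz1 was higher in AT2-like than in macrophage-gate cells under every alternative run, by 5.90 to 7.78 on the log2 scale. Lyz2 kept its direction but lost its call with no mitochondrial filter (1.10, adjusted p = 0.0552), the AT2-like gate at 2% Sftpc (1.01, 0.0816), the macrophage gate at 0.2% (1.03, 0.0584) and no filter on low counts (1.08, 0.0542); without 1 library it ranged over 0.78 to 1.51. Genes called ranged over 1541 to 3211 higher and 1830 to 3674 lower without 1 library, and were 3043 and 3557 by DESeq2 1.42.0. Without the replicate block they were 1856 and 2285; the library is the block, as each holds both classes. No paired analysis was possible between days because each has 1 library.

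Between days, AT2-like Lyz1 at day 8 against day 0 was 0.87 on the log2 scale at the 2% gate, under the rule, and at day 13 against day 8 it was 0.052 there, against -0.12 as reported. Macrophage Lyz1 depended on how cells with Sftpc were treated. At day 20 against day 0 it was -1.92 with the AT2-like gate at 2%, -1.65 without the highest Scrublet scores and -1.90 with cells under 1% Sftpc, and 0.63 with C1qb required. At day 20 against day 13 it was -2.76, -2.37 and -2.40 under the same 3, against 0.41 as reported, and it also turned round where cells with Sftpc were added, to -0.57 with the AT2-like gate at 10% and -0.99 with cells passing both gates counted. At day 8 against day 0 it was -0.0058 with C1qb required, and at day 13 against day 8 -0.056 with cells under 1% Sftpc, both intervals including 0. It passed the rule at day 8 against day 0 with the AT2-like gate at 10% (1.02) or with cells passing both gates counted in both classes (1.38), and at day 13 against day 8 with those cells counted (1.42).

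The Lyz1 share of lysozyme UMIs in AT2-like cells moved beyond its counting interval at day 8 to 32.2% (10% mitochondrial limit), 29.9% (10% gate), 31.6% (macrophage gate at 0.2%), 28.4% (cells of both gates, or double-gate cells, counted) and 30.5% (Scrublet). At day 13 it was 13.7% (2% gate), 14.2% (macrophage gate at 0.2%) and 13.7% (double-gate cells), and at day 20 5.36% (10% mitochondrial limit), 4.82% (10% gate) and 5.12% (Scrublet). The macrophage share was 0.485% at day 0 with C1qb required. At day 8 it was 0.303% (10% gate), 0.217% (2% gate), 0.272% (C1qb), 0.393% (double-gate cells), 0.213% (Scrublet), 0.158% (free RNA subtracted) and 0.210% (under 1% Sftpc). At day 13 it was 0.523% (10% gate), 0.236% (2% gate), 0.928% (double-gate cells), 0.222% (Scrublet), 0.210% (free RNA subtracted), 0.184% (under 1% Sftpc), 0.279% (no mitochondrial filter) and 0.220% (macrophage gate at 0.2%). At day 20 it was 0.0668% (2% gate), 0.886% (double-gate cells), 0.0778% (Scrublet), 0.640% (free RNA subtracted) and 0.0668% (under 1% Sftpc). With Lyz1-high cells split at 500 CPM in place of 1000, Pglyrp1 at day 20 was under the rule (0.95). The cause of these changes was not tested.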
